A study of Mus musculus with 12 samples.

Results

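Of the autosomal recombination hotspots found in both Ankrd31 knockout and wild type testes, 1452 had lost over 2-fold in relative strength in the knockout and lay at least 10 Mb from the distal end of their chromosome. They made up 14.5% of the 10042 shared hotspots at that distance. Over all 10760 shared autosomal hotspots the share was 15.9% (1708 hotspots), because 256 of the 718 nearer the distal ends were also over 2-fold lower; these are not described here. The members were selected on their measured strength. A hotspot was shared when its interval in the knockout list and its interval in the wild type list overlapped by at least 1 bp. Each strength was scaled to the typical shared autosomal hotspot of its own list (median 151 in the knockout and 182 in the wild type), and a log2 ratio of knockout over wild type below -1 made it a member. The members' strengths and ratios are therefore a description and carry no test.

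Meiotic cells break their own DNA to start recombination, and in most mammals the breaks cluster in short hotspots. The histone methyltransferase PRDM9 binds a DNA motif and marks most mouse hotspots, which keeps them away from promoters, and in mice without PRDM9 breaks fall on promoters and other open chromatin. The resected DNA at a break is coated by the recombinase DMC1, and ANKRD31 is a protein of the complex that makes the breaks on chromosome axes.

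DMC1 single-stranded DNA sequencing (DMC1-SSDS), which recovers the DNA bound by DMC1 in its single-stranded form, was done on whole testis of adult males. The knockout samples (2) are given by the allele Ankrd31 tm1Atot, with a strain background not given in the sources used, and the wild type samples (2) are B6 mice of the strain C57BL/6JCrl. Each genotype has 1 hotspot list, so differences between genotypes have no replicate check and get no p-value, and the effects of genotype, of strain background and of single animals cannot be told apart. The other 8 samples of the series, H3K4me3 and input DNA at 13 days of age, were not analysed here.

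The knockout list held 22034 hotspots with 4203380 reads and the wild type list 13480 hotspots with 4376692 reads. Autosomal hotspots found in a single list numbered 9688 in the knockout (called knockout-only below) and 1903 in the wild type (wild-type-only); a hotspot can be absent from a list because it fell just short of being called. Lower and higher refer to relative strength, the scaled value defined above. Without scaling, every log2 ratio shifts by -0.27. Scaled to the summed strength of the lists it shifts by -0.19, and scaled to the stronger wild type hotspots by 0.31.

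No genome sequence was at hand, so the members' own sequences and their PRDM9 motifs could not be read. Promoter windows were available, and gene starts are shown because many members lay inside genes whose starts carried a knockout-only hotspot. Shown first are the starts of Hcfc2, Faf1 and Disp1, each under a knockout-only hotspot, with a strongly lowered member inside the same gene. Hcfc2 encodes a host cell factor family protein, Faf1 a ubiquitin-binding protein and Disp1 a transporter that releases Hedgehog ligands. They are followed by annotated starts of Nt5c3, a nucleotidase gene, and Sumo3, which encodes a ubiquitin-like modifier, that lay inside a member's own interval. A gene can have several annotated starts. The one shown for Sumo3 is internal, because the centre of its member lies upstream of it and already within the gene. Each window runs from 250 bases before to 50 after the annotated start, from RefSeq for build GRCm38.p6, read 5′ to 3′ on the strand of the gene, with the dinucleotide CG in capitals. The positions are chr10:82698757-82699056 on the plus strand for Hcfc2, chr4:109676377-109676676 on the plus strand for Faf1, chr1:183221480-183221779 on the minus strand for Disp1, chr6:56901837-56902136 on the minus strand for Nt5c3 and chr10:77613459-77613758 on the plus strand for Sumo3.
Hcfc2: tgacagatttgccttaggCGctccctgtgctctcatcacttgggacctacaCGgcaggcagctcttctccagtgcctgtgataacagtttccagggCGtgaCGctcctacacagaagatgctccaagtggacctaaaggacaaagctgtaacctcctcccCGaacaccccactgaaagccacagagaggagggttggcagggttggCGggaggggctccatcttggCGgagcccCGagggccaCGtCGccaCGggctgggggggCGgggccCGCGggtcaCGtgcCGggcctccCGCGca
Faf1: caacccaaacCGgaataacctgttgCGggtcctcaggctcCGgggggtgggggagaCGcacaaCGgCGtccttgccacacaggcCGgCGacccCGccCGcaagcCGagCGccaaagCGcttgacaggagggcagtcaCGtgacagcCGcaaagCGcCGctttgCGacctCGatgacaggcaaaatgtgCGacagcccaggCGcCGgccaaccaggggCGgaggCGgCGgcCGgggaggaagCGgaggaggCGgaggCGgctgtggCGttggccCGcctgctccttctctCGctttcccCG
Disp1: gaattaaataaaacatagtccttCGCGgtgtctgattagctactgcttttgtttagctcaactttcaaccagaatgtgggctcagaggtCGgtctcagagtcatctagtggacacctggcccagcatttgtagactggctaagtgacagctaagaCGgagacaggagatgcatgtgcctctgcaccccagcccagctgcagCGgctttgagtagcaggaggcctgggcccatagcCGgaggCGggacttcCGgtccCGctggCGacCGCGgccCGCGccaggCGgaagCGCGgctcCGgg
Nt5c3: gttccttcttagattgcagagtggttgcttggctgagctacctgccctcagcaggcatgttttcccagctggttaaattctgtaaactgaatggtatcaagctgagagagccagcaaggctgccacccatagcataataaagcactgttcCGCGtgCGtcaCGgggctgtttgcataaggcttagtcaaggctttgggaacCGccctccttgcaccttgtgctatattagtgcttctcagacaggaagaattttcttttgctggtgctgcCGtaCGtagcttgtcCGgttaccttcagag
Sumo3: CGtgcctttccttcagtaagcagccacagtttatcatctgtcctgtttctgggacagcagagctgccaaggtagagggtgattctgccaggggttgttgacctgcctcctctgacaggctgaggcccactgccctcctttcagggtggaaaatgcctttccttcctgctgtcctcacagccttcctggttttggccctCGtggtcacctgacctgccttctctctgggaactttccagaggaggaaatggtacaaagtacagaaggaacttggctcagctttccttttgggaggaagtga

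CG was counted in these letters, which read the same on both strands. The starts under knockout-only hotspots held 18 (Hcfc2), 33 (Faf1) and 18 (Disp1), and the starts inside members 8 (Nt5c3) and 2 (Sumo3). At least 1 CG was present in 94.8% of the 31396 promoter windows on the autosomes other than 18, so its number is given instead. The 17 windows inside a member interval had a median of 4 CG, the 131 inside another shared hotspot 4, the 5810 inside a knockout-only hotspot 25, and all windows 7. At least 20 CG were found in 5.88% of windows inside members, 9.92% inside other shared hotspots, 69.6% inside knockout-only hotspots and 27.0% of all windows. The windows lay in 17 members, 117 other shared hotspots and 4304 knockout-only hotspots. Few shared hotspots thus covered an annotated start, members or not, and those starts were poor in CG in both groups. Members did not stand apart from other shared hotspots in this, while the knockout-only hotspots covered starts rich in CG. The windows include alternative starts inside genes, such as that of Sumo3. They were not sorted by kind, and differ from the outer gene boundaries that define gene ends below.

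Inside Hcfc2 the member had a strength of 191 background-subtracted reads in the knockout and 1831 in the wild type, a log2 ratio of -2.99 with a 95% counting interval of -3.15 to -2.73. It lay 7.30 kb from the gene start, where the knockout-only hotspot had a strength of 57. The member in Faf1 had 213 in the knockout and 1817 in the wild type (-2.82), at 148 kb from a start with a knockout-only hotspot of 84. The member in Disp1 had 50 in the knockout and 388 in the wild type (-2.69), at 48.2 kb from a start with a knockout-only hotspot of 34. That hotspot was a weak call, as the knockout list had a median of 116 reads per hotspot and a minimum of 23, background included. These genes were picked after their values were seen, for a strongly lowered member. The size of the loss beside the strength at the gene start is therefore no finding. The members over the printed starts of Nt5c3 (knockout 303, wild type 1166) and Sumo3 (knockout 356, wild type 926) were lower too. Counting intervals, here and below, come from read counts with the background left in, scaled to their own medians. They need not be centred on the ratio of strengths. They cover the counting of reads alone, and PCR reads without molecular identifiers are not independent molecules.

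The members were strong wild type hotspots that fell to the level of a typical shared hotspot in the knockout. Their median strength was 148 in the knockout (quartiles 80 and 254) and 506.5 in the wild type (quartiles 272 and 862), while the 8590 other shared hotspots had medians of 157 in the knockout and 152 in the wild type. Of the members, 1287 (88.6%) exceeded the median of shared hotspots in the wild type, and they included 445 of the 1007 hotspots in the top 10% by wild type strength. Together they made up 7.29% of all strength in the knockout list (287797 reads over 2.37 Mb of intervals, mean 198) and 23.2% of that in the wild type list (972146 reads over 2.89 Mb, mean 670). Wild type strength is one of the values that chose them, so their high level there is no finding.

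**Figure D1:**
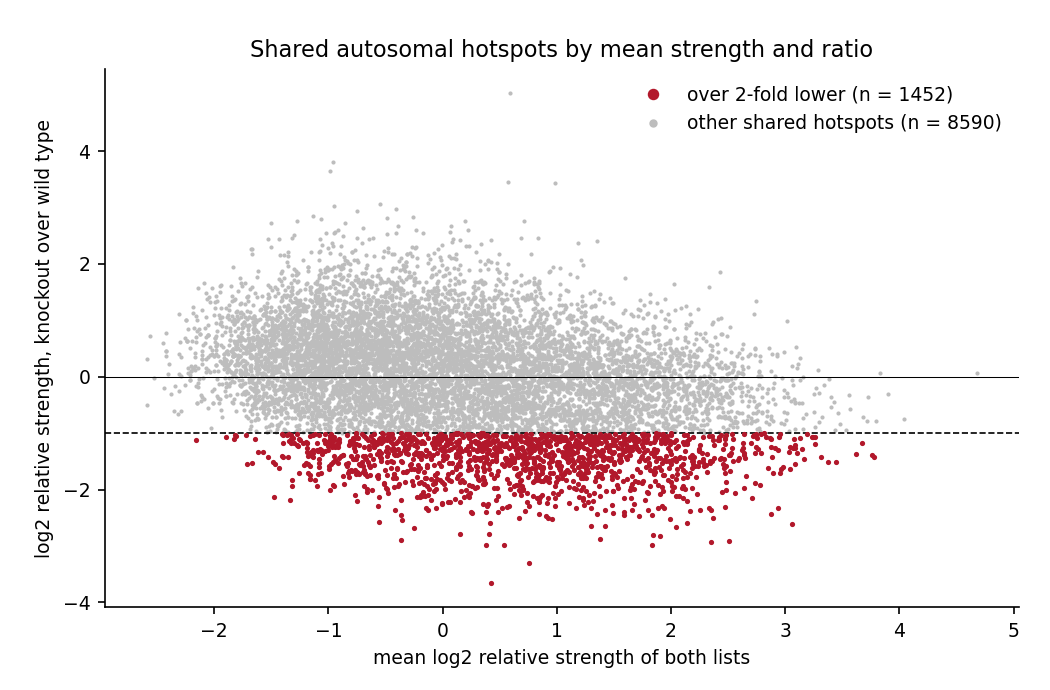
Log2 relative strength of knockout over wild type (vertical axis) against the mean log2 relative strength of both lists (horizontal axis) for the 10042 shared autosomal hotspots at least 10 Mb from a distal end, 1 point per hotspot. The 1452 members (red) lie below the dashed line at -1, which chose them, and span most of the range of mean strength.

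The median log2 ratio of the members was -1.39 and the lowest was -3.65, and 156 of them (10.7%) were over 4-fold lower. The counting interval lay wholly below the threshold of -1 for 836 members (57.6%) and wholly below 0 for 1451. Just inside the threshold were hotspots in Ube2k, a ubiquitin-conjugating enzyme gene (knockout 389, wild type 938), Fto, an RNA demethylase gene (knockout 749, wild type 1807), Top1, the topoisomerase gene (knockout 63, wild type 152), Ccdc138 (knockout 116, wild type 280) and near 1700016H13Rik (knockout 135, wild type 326). Just outside were hotspots in Ap3d1, an adaptor subunit gene (knockout 164, wild type 395), Cdh6, a cadherin gene (knockout 169, wild type 407), and Lama2, a laminin gene (knockout 265, wild type 637), and near G3bp2 (knockout 54, wild type 130) and Mpdz (knockout 521, wild type 1253). Their ratios run from -1.0025 to -1.0004 inside and from -0.9988 to -0.9959 outside, so hotspots on either side of the threshold differ by less than their counting error.

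Among members at or above the median wild type strength, the 10 with the lowest ratio included 5 from one stretch of chromosome 8. These were in Ufsp2, which encodes a protease of the ubiquitin-like modifier UFM1 (knockout 57, wild type 864), Acsl1, an acyl-CoA synthetase gene (knockout 81, wild type 969), Sorbs2, a cytoskeletal adaptor gene (knockout 78, wild type 745), and Stox2 (knockout 43, wild type 385), and near Ing2, a chromatin reader gene (knockout 70, wild type 665). Beside Hcfc2 and Faf1, the others were in Arf6, which encodes a small GTPase of membrane traffic (knockout 278, wild type 2568), Clk1, a kinase gene of splicing control (knockout 313, wild type 2828), and Zfp568, a zinc finger repressor gene (knockout 145, wild type 1280). Their ratios lay between -3.65 and -2.82, which is 12.6-fold to 7.08-fold lower.

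The 10 members strongest in the wild type had ratios from -2.60 to -1.17. The strongest lay in Erbb4, a neuregulin receptor gene (chromosome 1 from 68487747 to 68490433; 1266 in the knockout, 4072 in the wild type). Next came hotspots in Ankfn1 (knockout 1268, wild type 3977), in Atad2b, a bromodomain ATPase gene (knockout 510, wild type 3738), and in Gabrb1, a GABA receptor subunit gene (knockout 1155, wild type 3599). Those in Dennd1a, an endocytic exchange factor gene (knockout 515, wild type 3127), and in Braf, the MAP kinase pathway kinase gene (knockout 478, wild type 3106), were 5.04-fold and 5.39-fold lower. The other strong ones lay outside protein-coding genes, nearest to Cmpk2 (knockout 1287, wild type 3492), Trim24 (knockout 971, wild type 3339), Lrrc4c (knockout 930, wild type 3200) and Adamts5 (knockout 915, wild type 2956). The strongest members thus included sites 91.0 kb to 477 kb from the nearest gene end.

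Most members lay inside protein-coding genes. This held for 1156 of 1452 members (79.6%, 95% interval 77.4 to 81.7) and for 3764 of 8590 other shared hotspots (43.8%, 42.8 to 44.9). The share was 46.2% for hotspots that stayed within 2-fold and 30.1% for the 1292 that were over 2-fold higher. Members exceeded the other shared hotspots on each of the 19 autosomes, by 26.6 to 46.1 percentage points. Members outside genes were inside a long non-coding RNA gene in 14.9% of cases and other shared hotspots outside genes in 14.7%.

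Membership was graded by what the knockout list held at the ends of the host gene. Of shared hotspots inside a gene with a knockout-only hotspot centred within 1 kb of either end, 544 of 1615 (33.7%, 31.4 to 36.0) were members. Inside other protein-coding genes 612 of 3305 were (18.5%, 17.2 to 19.9), and outside protein-coding genes 296 of 5122 (5.78%, 5.16 to 6.45). The order held on 19 of 19 autosomes, with ranges of 21.3% to 49.3%, 12.05% to 26.0% and 2.56% to 9.56%. Hotspots over 2-fold higher had the opposite order, at 4.396%, 9.62% and 17.6%. The median log2 ratio of the 3 classes was -0.60, -0.11 and 0.25. The sign of the first was the same under every scaling tried, that of the second turned to 0.20 with scaling to stronger wild type hotspots, and that of the last to -0.02 without scaling.

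The 3 classes of place and the distance to knockout-only hotspots both moved with membership. With a knockout-only hotspot within 100 kb the member shares were 38.4%, 22.2% and 8.31%, and with none within 100 kb they were 16.9%, 14.8% and 3.51%. For hotspots inside genes with none within 100 kb, the interval of the class with a knockout-only hotspot at a gene end (13.2 to 21.2) included the share of the other genes. That class can hold only long genes, because the hotspot at the gene end must lie over 100 kb away, while the other genes were of any length. The member share fell from 27.3% in host genes of 100 to 200 kb to 8.37% above 500 kb. The comparison therefore cannot separate gene end, distance and gene length. The order of the 3 classes also held in each quintile of the shared hotspots by mean strength, at 10.7%, 6.09% and 1.40% in the weakest quintile and 57.6%, 29.6% and 10.4% in the strongest.

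**Figure D2:**
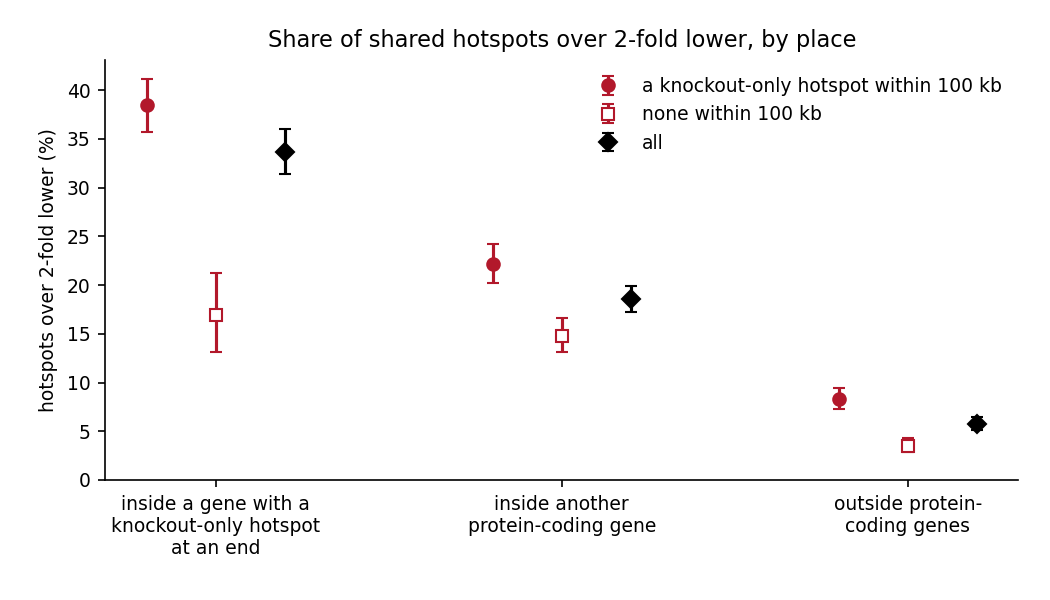
Share of shared hotspots over 2-fold lower in the knockout (vertical axis, percent) by place (horizontal axis). Filled circles have a knockout-only hotspot within 100 kb, open squares have none, black diamonds are both together, and bars are exact 95% binomial intervals. The black diamonds fall in the order 33.7%, 18.5% and 5.78%.

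Where gene strand was known, the end in question was mostly the start of the gene. The host gene start carried a knockout-only hotspot for 447 of 934 members (47.9%, 44.6 to 51.1) and for 829 of 2906 other shared hotspots inside genes (28.5%, 26.9 to 30.2). The members had the higher share on 18 of 18 autosomes with strand data. The 3′ end carried one for 5 members (0.535%) and 40 others (1.38%). Over all 16457 protein-coding genes with strand, 4044 (24.6%) had a knockout-only hotspot at the start and 200 (1.22%) at the 3′ end. Where a host gene had one at either end, the member share was 38.1%, 39.2%, 38.0%, 31.3% and 26.2% in 5 successive equal parts of the gene from its start. Where no host gene had one at either end, the parts had 21.4%, 17.4%, 18.4%, 19.2% and 19.4%. Members themselves were centred at a gene end about as often as other shared hotspots, with 42 members (2.89%, 2.09 to 3.89) and 222 others (2.58%, 2.26 to 2.94).

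The surroundings of members were rich in genes. Members had a median of 10 protein-coding genes within 500 kb and other shared hotspots 6, a difference of the same sign on 19 of 19 autosomes. With no gene within 500 kb, 12 of 575 hotspots (2.09%, 1.08 to 3.62) were members. The share was 5.70% with 1 or 2 genes, 10.7% with 3 to 5, 16.9% with 6 to 10, 20.9% with 11 to 20, 27.3% with 21 to 40 and 26.8% with more. Density and place were each related to membership with the other held in ranges. Inside genes the share was 9.17% with up to 2 genes around, 22.1% with 3 to 10 and 31.0% with more, and outside genes it was 3.01%, 6.02% and 9.55%. Outside genes the share was 11.2% within 10 kb of the nearest gene end and 3.08% at 100 to 500 kb.

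Host genes of members were of middle length. Their median length was 92111.5 bp for members and 173274 bp for other shared hotspots, and members had the shorter median on 19 of 19 autosomes. The member share was 26.2% in genes up to 20 kb long, 30.1% at 20 to 50 kb, 37.9% at 50 to 100 kb, 27.3% at 100 to 200 kb, 15.1% at 200 to 500 kb and 8.37% above. The longest genes were thus the least affected of the genic hotspots, although they hold many of them.

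**Figure D3:**
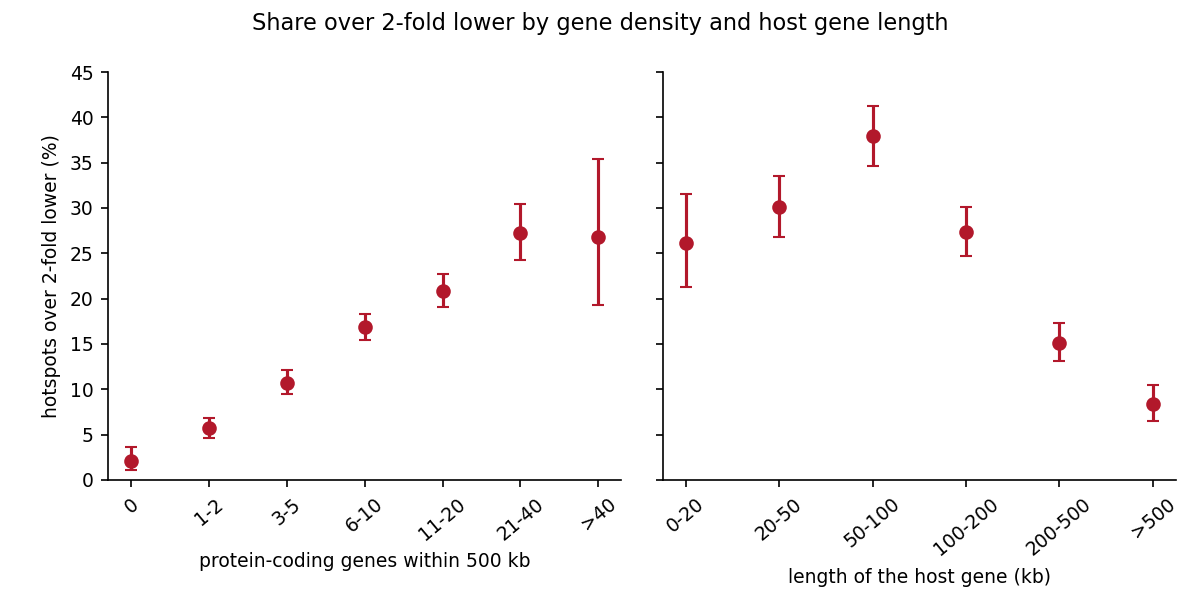
Share of shared hotspots over 2-fold lower in the knockout (vertical axes, percent) by the number of protein-coding genes within 500 kb (left) and, for hotspots inside genes, by the length of the host gene in kb (right). Points are shares and bars exact 95% binomial intervals. The share climbs with gene number to 27.3% and peaks at 37.9% for genes of 50 to 100 kb.

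At least 1 member lay in 1016 of the 3190 protein-coding genes with a shared hotspot (31.8%). Of the 574 genes with 2 shared hotspots, 68 had both lowered and 147 had 1. Of the 192 with 3, 10 had all lowered and 74 some, and of the 201 with 4 or more, 3 had all and 72 some. The genes with most members, 4 each, included Herc2, a ubiquitin ligase gene of the DNA damage response, where 4 of 4 shared hotspots were members (median log2 ratio -1.66). Crebbp, a histone acetyltransferase gene, had 4 of 4 (-1.51), Gphn, the inhibitory synapse scaffold gene, 4 of 4 (-1.14), and Celf2, a splicing factor gene, 4 of 5 (-2.03). Snd1, a tudor domain gene, had 4 of 6 (-1.54), with one of its hotspots at 0.29, and Exoc4, an exocyst gene, 4 of 10 (-0.82). Most genes with several shared hotspots and at least 1 member also held hotspots that were not members. Members were 23.5% of all genic shared hotspots, so such mixed genes would be common without any grouping. Grouping within genes was not tested.

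The gene lists were described beside the 23.5% of all 4920 genic shared hotspots that were members (median log2 ratio -0.27, which turns to 0.04 with scaling to stronger wild type hotspots). In host genes over 500 kb, the nearer comparison for lists of long genes, the share was 8.37%. Long adhesion and synapse genes held 239 shared hotspots in 39 of the 42 listed genes, of which 9 (3.77%) were members, with a median log2 ratio of 0.37 that stayed above 0 under every scaling tried. Those members included the hotspots in Erbb4, in Nrg1, which encodes a ligand of that receptor family (knockout 587, wild type 1454), in Cntnap2 (knockout 178, wild type 804), in Tenm3 (knockout 128, wild type 691), and in Cntn5 (knockout 255, wild type 664). Cadherins and protocadherins had 2 members of 53 hotspots (3.77%, median 0.30), in Cdh1 (knockout 215, wild type 701) and Cdh12 (knockout 124, wild type 380). Cdh4, Cdh13, Pcdh9 and Pcdh15 stood in both this list and that of long adhesion and synapse genes. Genes named Zfp, mostly zinc finger transcription factors, had 24 of 67 (35.8%, median -0.50, below 0 under every scaling tried), in 20 of 53 genes. Host length and gene density were not matched for this list. Over all genic hotspots the share reached 37.9% in genes of 50 to 100 kb, and 31.0% with over 10 genes within 500 kb. The Zfp share is therefore not shown to be particular to these genes. The strongest Zfp members in the wild type were in Zfp451 (knockout 573, wild type 1885), Zfp568 and Zfp961 (knockout 364, wild type 1221). Genes named Slc, mostly solute carrier transporters, had 17 of 86 (19.8%), led by Slc44a1 (knockout 647, wild type 2562) and Slc4a7 (knockout 319, wild type 1968). The list was drawn by symbol and so also held Slc4a1ap (knockout 332, wild type 1529), which encodes an adaptor protein and no transporter.

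Genes of meiosis itself were rarely measured in this way. The 28 genes of repair and synapsis had 1 shared hotspot, a member in Atm, the kinase gene that limits break number (knockout 237, wild type 929, log2 ratio -1.70, interval -1.87 to -1.46). The 14 genes of the break machinery had 1 shared hotspot and no member. Olfactory receptor genes and vomeronasal receptor genes had 3 shared hotspots each and no member.

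Members stood among knockout-only hotspots. At least 1 lay within 100 kb of 1055 members (72.7%, 70.3 to 74.9) and 4293 other shared hotspots (49.98%, 48.9 to 51.0), on average 1.37 for members and 0.787 for others. Members exceeded the others on 19 of 19 autosomes. Within 10 kb the shares were 8.47% of members and 3.80% of others, and the median distance to the nearest knockout-only hotspot was 51243 bp for members and 100040 bp for others. That nearest knockout-only hotspot was itself at a gene end for 62.5% of members and 38.4% of others. By distance, the member share was 27.4% up to 10 kb, 21.5% at 10 to 20 kb, 21.1% at 20 to 50 kb, 16.1% at 50 to 100 kb, 10.6% at 100 to 200 kb, 6.93% at 200 to 500 kb and 5.61% beyond. The share was lower in each successive range of distance.

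Wild-type-only hotspots were also more frequent near members. They lay within 100 kb of 354 members (24.4%, 22.2 to 26.7) and 978 others (11.4%, 10.7 to 12.1), and members had the higher share on 19 of 19 autosomes. Another shared hotspot lay within 100 kb of 67.6% of members and 60.1% of others. The summed relative strength of the other hotspots of each list within 100 kb averaged 2.34 in the knockout and 2.44 in the wild type around members, and 1.82 in the knockout and 1.61 in the wild type around other shared hotspots. The medians around members were 1.90 in the knockout and 1.24 in the wild type, so that median and mean differed in which list was higher. Around other shared hotspots the medians were 1.25 in the knockout and 0.604 in the wild type, higher in the knockout like the means. Knockout-only hotspots enter the knockout sum and wild-type-only hotspots the wild type sum. These classes come from the same lists that chose the members.

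Members lay near other lowered hotspots. The nearest shared hotspot was itself over 2-fold lower for 471 members (32.4%, 30.03 to 34.9) and 1070 other shared hotspots (12.5%, 11.8 to 13.2), and members had the higher share on 18 of 19 autosomes. Among partners within 10 kb, 56.3% were members around members and 10.5% around other shared hotspots. Around members the share was 40% at 10 to 30 kb, 31.4% at 30 to 100 kb, 21.8% at 100 to 300 kb, 18.3% at 300 kb to 1 Mb, 16.7% at 1 to 3 Mb and 14.2% at 3 to 10 Mb. Around other shared hotspots it was 12.8%, 12.9%, 14.0%, 14.1%, 13.8% and 14.3% in the same ranges. The difference thus declined with distance and was no longer present at 3 to 10 Mb. Across hotspots the log2 ratio of the nearest shared hotspot had a Pearson correlation of 0.27 (n = 10042; Spearman 0.27), 0.54 within 10 kb (n = 492) and 0.21 at 100 to 200 kb (n = 2345), a description of hotspots that share their libraries.

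**Figure D4:**
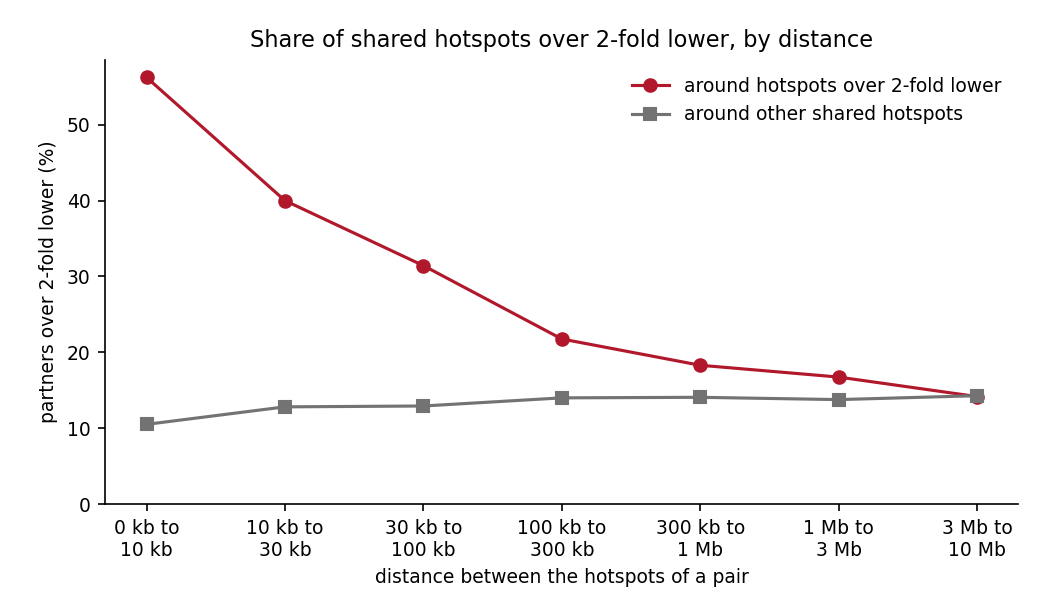
Share of shared hotspots over 2-fold lower (vertical axis, percent) among the partners of members (red circles) and of other shared hotspots (grey squares), by the distance between both hotspots (horizontal axis, ranges in kb and Mb). The curves start at 56.3% for members and 10.5% for others, and end at 14.2% for members and 14.3% for others.

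The other shared hotspots within 1 Mb had a median log2 ratio of -0.23 around members and 0.05 around other shared hotspots. Members had the lower value on 19 of 19 autosomes, and that difference kept its sign under every scaling tried, but the value around members itself turned to 0.05 when scaled to stronger wild type hotspots. In order along the chromosomes, 763 members (52.5%) had neighbours on both sides that were not members. The other 689 stood in runs of neighbouring members, 273 of them in 80 runs of 3 or more. The longest, 7 members over 786 kb of chromosome 11, reached over Znrf3 (knockout 53, wild type 187) and Ankrd36 (knockout 43, wild type 161) to Nudcd3, a dynein regulator gene with 3 (knockout 39 and wild type 137, knockout 164 and wild type 674, then knockout 191 and wild type 766).

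A run of 6 members over 2064 kb of chromosome 8 went from Stox2 (knockout 43, wild type 385) past sites near Ing2 (knockout 70, wild type 665) and Dctd (knockout 53, wild type 135) to 3 hotspots in Tenm3, led by one of 128 in the knockout and 691 in the wild type. Runs of 5 were found in 4 places. On chromosome 11, 3 hotspots in Ankfy1, led by one of 92 in the knockout and 588 in the wild type, were followed by hotspots near and in Atp2a3, a calcium pump gene (knockout 95 and wild type 242, then knockout 193 and wild type 658). On chromosome 13 the run covered Erbin, which encodes a protein bound to the receptor ERBB2 (knockout 235 and wild type 748, then knockout 227 and wild type 721), Nln, a peptidase gene (knockout 432, wild type 1197), Trappc13 (knockout 156, wild type 422), and a site near Adamts6 (knockout 467, wild type 1452). On chromosome 16 it covered Slx4, a scaffold gene of repair nucleases (knockout 49, wild type 260), and the 4 hotspots of Crebbp, led by one of 206 in the knockout and 771 in the wild type. On chromosome 4 it covered Esrp1, a splicing regulator gene (knockout 39, wild type 135), Virma, an RNA methylation gene (knockout 466, wild type 1153), and Rad54b, a recombination gene whose first hotspot also lies in Fsbp (knockout 91 and wild type 304, then knockout 349 and wild type 1180), with 1 hotspot between genes (knockout 85, wild type 282).

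Among 5 Mb windows with at least 10 shared hotspots, the member share had a median of 12.7% over 432 windows, with 47 windows at 0 and 10 above 40%. The highest were chromosome 8 from 45 to 50 Mb (11 of 16, 68.8%), chromosome 2 from 35 to 40 Mb (10 of 20) and chromosome 16 from 0 to 5 Mb (6 of 12). By chromosome the share was highest on 11 (18.4%, 15.4 to 21.6), 6 (16.8%) and 2 (16.6%), and lowest on 15 (10.9%, 8.26 to 14.1), 14 (11.7%) and 16 (11.9%). Most of these intervals overlap. In the proximal 5 Mb of the chromosomes 49 of 189 hotspots (25.9%, 19.8 to 32.8) were members, at 5 to 10 Mb 18.7%, and from 10 to 20 Mb 13.3%.

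The densest block surrounded the strongest hotspot of the whole knockout list. That hotspot lay inside Enpp6, a phosphodiesterase gene, on chromosome 8 from 47002632 to 47005176, with a strength of 7346 in the knockout, where it ranked 1, and 405 in the wild type, where it ranked 2977. It was 21.9-fold higher in relative strength, with a log2 ratio of 4.45 (counting interval 4.22 to 4.50), and the second strongest autosomal hotspot of the knockout had 3961. Within 2 Mb of it were 13 other shared hotspots, of which 10 were members, with ratios from -3.65 to -0.54 and a median of -2.16. Their summed strength was 1123 in the knockout (20.6 kb of intervals, mean 86.4) and 6596 in the wild type (26.0 kb, mean 507), and their median background was 10 reads in the knockout and 13 in the wild type. The same stretch had no knockout-only and 12 wild-type-only hotspots. Members beside those named above were in Snx25, a sorting nexin gene (knockout 76, wild type 633), in Tenm3 (knockout 103, wild type 443), and near Tlr3 (knockout 155, wild type 446).

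The block ended within 3 Mb of the Enpp6 hotspot. At 2 to 3 Mb 1 of 4 shared hotspots was a member (median log2 ratio 0.06), and at 3 to 5 Mb 2 of 13 (0.05). The next 24 strongest autosomal knockout hotspots had median log2 ratios between -0.65 and 1.24 for the shared hotspots within 2 Mb, with at most 7 lower ones and at most 8 wild-type-only hotspots. Without the stretch within 3 Mb, 1441 members were left, of which 79.7% were inside genes, and the nearest shared hotspot was over 2-fold lower for 32.1%. The block was picked after its values were seen, and knockout genotype and strain background cannot be told apart there.

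**Figure D5:**
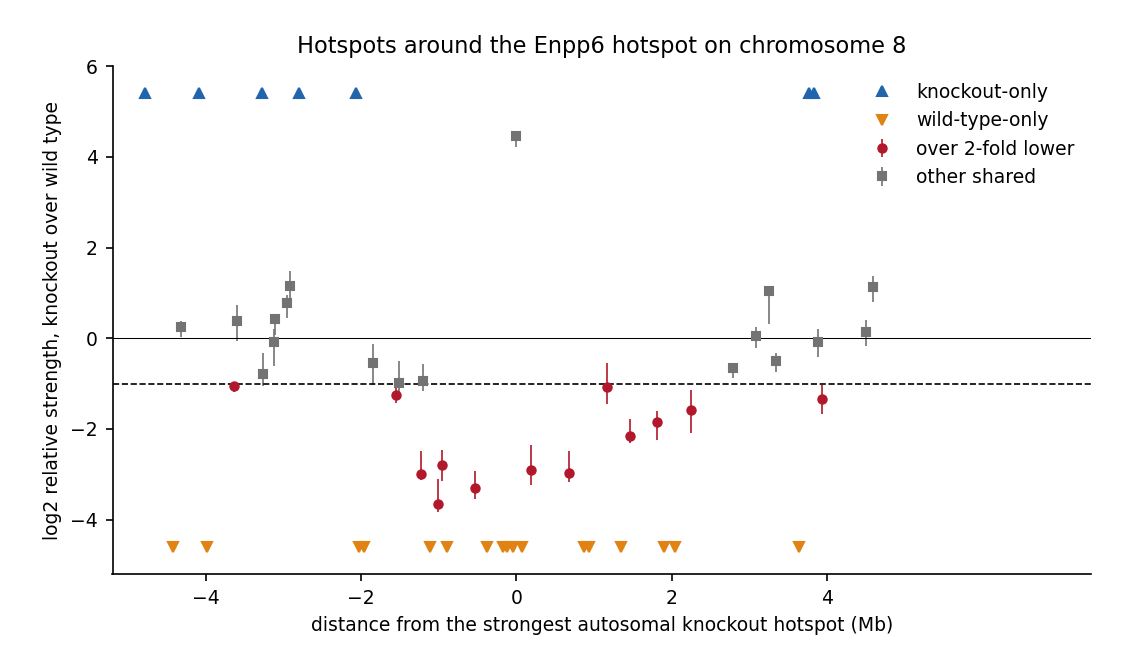
Log2 relative strength of knockout over wild type (vertical axis) by distance from the Enpp6 hotspot in Mb (horizontal axis), with members in red, other shared hotspots in grey, and bars for the 95% counting interval. Triangles at the top and bottom edges mark knockout-only and wild-type-only hotspots by position alone. The Enpp6 hotspot stands at 4.45, and the 13 shared hotspots within 2 Mb lie between -3.65 and -0.54.

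Members were narrower in the knockout than in the wild type by more than other shared hotspots were. Width moved with strength (below), and the members were chosen for lost strength, so this narrowing is a description and no separate finding. Their median width was 1600 bp in the knockout and 1939 bp in the wild type, while other shared hotspots had 1566 bp in the knockout and 1744 bp in the wild type. The width ratio of knockout over wild type had a median of 0.821 for members and 0.8999 for others. The centres shifted by a median of 51 bp for members and 50 bp for others. Shared hotspots had to overlap, so a hotspot that moved off its interval could not appear here. Wild type width of members exceeded that of others on 19 of 19 autosomes.

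Width moved with strength. Within quintiles of wild type strength, from the weakest to the strongest, members had median wild type widths of 1542, 1644, 1768, 1840 and 2079 bp, and other shared hotspots 1548, 1678, 1750, 1834 and 2020 bp. These quintiles held 6, 63, 233, 400 and 750 members, so the weakest medians rest on few. Within quintiles of mean strength the median knockout width was 1351 bp for members and 1462 bp for others in the weakest quintile, and 1674 bp for members and 1667 bp for others in the strongest. These quintiles do not match knockout strength. Its median was 41 for members and 64 for others in the weakest, and 315 for members and 523 for others in the strongest. The wider wild type intervals of members were thus nearly matched by other hotspots of like wild type strength. The deposited background had a median of 10 reads in the knockout and 17 in the wild type at members, and of 10 in both lists at other shared hotspots. Its part in the widths and ratios was not tested.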

How the data were processed

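DMC1-SSDS was measured in 2 samples per genotype, and the authors deposited 1 hotspot list for each; the sources used here do not say whether animals were pooled. Per the submitters' processing notes, CASAVA, Bowtie2, BWA and MACS2 and the build mm10 were used, without versions or roles. Per the file headers the lists give a read count for each hotspot, a background, an estimate in rounded steps treated as a score, and a strength. The deposited strength signal equals the read count less that background in 100% of hotspots. The authors' percent strength and rank were used for ranks alone. The lists held 4203380 (knockout) and 4376692 (wild type) reads, with a median of 116 (knockout) and 163 (wild type) per hotspot, and library depth was not used here. Start positions are printed as in the lists, and their base is not stated.

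Pairs were formed with Python 3.11.15, pandas 2.3.3 and numpy 2.4.6, and all 11487 were 1 to 1. Shares have exact Clopper-Pearson 95% intervals. Ratio intervals are the same applied to both read counts, background included and scaled to their own medians (scipy 1.17.1). Both kinds of interval cover counting error alone, and hotspots are not replicates, so no test was run. The steps were tested on simulated data. Genes are those of a RefSeq table of GRCm38.p6 (the coordinates of mm10), with strand matched from RefSeq promoter windows for 80.8% of the 4751 genic shared hotspots and 81.7% of genes on the 18 autosomes used for gene starts. Lengths of mm10 chromosomes were written from general knowledge of the assembly. Quintiles split the 10042 hotspots by mean log2 relative strength, or by wild type strength where said.

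Named hotspots are the 10 members lowest in ratio among those at or above the median wild type strength, the 10 strongest in the wild type, the 5 nearest the threshold on each side, the longest runs, the genes with most members, and listed genes. Ties added a gene and a run. The gene starts, Enpp6 and the chromosome 8 stretch were picked after their values were seen. The members and lists were chosen with earlier results of these data known. Alternatives changed the scale, the fold, the overlap, the distal limit, the windows and the hotspots used.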

Additional observations from a re-analysis of the deposited data

How the results depend on the processing

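No paired analysis was possible because each genotype has 1 list and the lists carry no replicate numbers. In 65 of 65 comparisons under other scales, folds, measures, overlaps, limits and windows, the difference between members and other shared hotspots kept its direction. That count includes wild type width, which moved with the strength that chose the members, and the nearly equal share at gene ends. Within quintiles of mean strength 1 of 6 differences reversed (below). The sizes followed the definition of a member. The values below are, in this order, the number of members (each time), and, where it left the 95% interval of its main value, their share of shared hotspots, the share whose nearest shared hotspot was also lower, the median log2 ratio within 1 Mb, the share with a knockout-only hotspot within 100 kb, the share inside a protein-coding gene and the median wild type width. Over 1.5-fold lower gave 2611, 26.0%, 43.8%, -0.18, 67.1%, 71.2% and 1906 bp, and over 3-fold lower 468, 4.66%, 16.0%, -0.30, 77.6%, 90.6% and 1984 bp. Scaling to the stronger wild type hotspots gave 843, 8.39%, 25.6%, a reversed sign at 0.046 (other shared hotspots 0.34), 85.1% inside genes and 1974 bp. Unscaled strengths gave 2115, 21.1%, 39.3%, -0.47, 68.8%, 73.9% and 1914 bp, and scaling to the summed strength 1905, 18.97%, 37.3%, -0.39 and 75.2% inside genes. Using hotspots at or above the median strength of both lists gave 712, 17.8%, -0.43, 22.9% (other shared hotspots 9.55%), 77.4% and 2080 bp. No distal limit gave 1708, 15.9%, 35.7%, -0.31, 70.0%, 76.6% and 1918 bp, a limit of 5 Mb 1590 and a median of -0.27, and read counts in place of strength 1371 and a share of 13.7%. A limit of 20 Mb gave 1314 members, an overlap of 50% of both intervals 1444, and leaving out the chromosome 8 stretch, chosen after seeing the data, 1441. Under these 3 settings the other results run stayed within those intervals. Within 50 and 200 kb, 49.1% and 88.4% of members had a knockout-only hotspot, and windows of 500 kb and 2 Mb gave medians of -0.28 and -0.16. At gene ends, 500 bp and 2 kb gave 1.24% and 5.79%. Within quintiles of mean strength the members' excess in wild type width was 106 bp on average, against 195 bp without that split, and the difference in knockout width reversed to -32.6 bp, against 34 bp without it. Members stayed stronger in the wild type within these quintiles, with a median of 1087 against 658 for others in the strongest. Within quintiles of wild type strength their wild type width was 1542 bp against 1548 bp for others in the weakest, and 2079 bp against 2020 bp in the strongest. Depth limits the weak end: the weakest listed hotspot had 23 reads in the knockout and 28 in the wild type, 96 members lay in the weakest 10% of the knockout list, and the causes of these shifts were not tested.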
